A study of Saccharomyces cerevisiae with 6 samples.

Results

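The genes described here encode the DNA replication machinery of the budding yeast Saccharomyces cerevisiae, 47 named genes of the 7127 in the deposited count table. They were listed by name for their function, though with earlier results of these data known. All 47 were among the 6220 genes with enough counts to be tested. The list was divided by role into 14 licensing genes, 10 firing genes and 23 genes of the replication fork.

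Eukaryotic chromosomes are replicated once per cell cycle in steps. In G1 the origin recognition complex (ORC), with Cdc6 and Cdt1 (encoded by TAH11), loads the ring-shaped Mcm2-7 helicase onto origins, which is called licensing. In S phase the Cdc7-Dbf4 kinase and the cyclin-dependent kinase act with Sld2, Sld3 and Dpb11 to bring in Cdc45 and the GINS complex, which fires the origin. At the fork DNA polymerase alpha-primase makes primers, polymerases epsilon and delta extend them with the sliding clamp PCNA, replication factor C (RFC) loads the clamp, and replication protein A (RPA) covers single-stranded DNA. In this yeast many fork genes are transcribed in late G1 through the factor MBF, which binds the MCB element, and CDC6 and several MCM genes are transcribed at the M/G1 boundary through Mcm1, which the repressors Yox1 and Yhp1 can block.

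All libraries came from a haploid MATa strain of the S288c background grown in YPD medium. Both groups carried the same alleles: TetO arrays with TRP1 at trp1, LacO arrays with hphNT1 at lys4, LacR-GFP with HIS3 at his3, a TetR-mCherry fusion, the mutation ade2, and the hormone-dependent recombinase Cre-EBD78 with LEU2 at leu2. Both also carried a reporter at SHS1, a septin gene, labelled Shs1-loxPmCherry:Cln2(3'UTR), which is followed by NatNT2, a further loxP site and GFP. The groups were 3 libraries collected at the addition of 1 µM beta-estradiol (mCh*_t0, 0 min) and 3 collected 180 min later (mCh-_t180), from 3 independent experiments per the labels. There was no culture without hormone at 180 min, so that hormone, Cre activity, the recombined reporter and time in culture cannot be told apart. The promoter of the recombinase and the number of clones used were not stated in the labels. The cultures were not described as synchronized, and in bulk RNA fewer cells in a cell cycle phase and less RNA per cell cannot be told apart.

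The libraries held 25987900 to 34032212 counts. Summed expression of 7 MATa marker genes was 2595 to 3065 CPM (counts scaled to a common library size with TMM composition factors) in the earlier group and 1719 to 1988 CPM in the later one. The 2 alpha-factor genes MF(ALPHA)1 and MF(ALPHA)2 did not exceed 0.615 CPM in any library. The further MATalpha markers STE3 and SAG1 were not near 0, at 4.21 to 6.81 and 15.2 to 18.2 CPM over the libraries. The share of counts in ribosomal protein genes was 33.1% ± 0.398 in the 0 min libraries and 21.0% ± 0.150 in the later ones (SD, n = 3). Without composition factors, on library sizes alone, the median over all genes was a log2 fold change of 0.27 instead of 0.02. Changes are therefore also given relative to the median gene. A gene was called when the adjusted p of edgeR's quasi-likelihood test (Benjamini-Hochberg over all tested genes) was below 0.05.

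The promoters of the 47 genes differed by role. The window from 250 bases before to 50 bases after the start codon was searched on both strands of the R64 genome for the MCB element ACGCGT, for CGCGAAA or CACGAAA (SCB, bound by the factor SBF), and for the core of Mcm1 sites such as the early cell cycle box, here TTNCC and GGNAA with 6 bases between them. The MCB element was in 17 of 23 fork promoters, 4 of 10 firing promoters and 1 of 14 licensing promoters, and in 184 of all 6007 promoters (3.06%). The Mcm1 core was in 5 of 14 licensing promoters (CDC6, MCM3, MCM5, MCM6 and MCM7), in 0 firing or fork promoters, and in 55 of all promoters (0.916%). SCB letters were in 9 of the 47 promoters (19.1%), against 7.69% of all promoters. An MCB match among the 47 began 85 to 240 bases before the start codon, and 1 pair of matches to different motifs overlapped, at POL30. A match is a description of letters and does not show that a factor bound there.

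The following 30-base windows from RefSeq's R64 genome show the Mcm1 core, in capitals, at the licensing genes that hold it, with the start codon to the right of every window. They are shown because this motif was found at licensing genes and at 0 firing or fork genes. CDC6 and MCM7 each held 2 matches, which lay end to end.
CDC6 (chrX:69138-69167, plus strand): gtcggagTTTCCAGATCAGGAAAttaccca
CDC6, nearer match (chrX:69154-69183, plus strand): caggaaaTTACCCACTTAGGAAAttgagtt
MCM3 (chrV:86745-86774, plus strand): aattactTTTCCTAAATGGGTAAaaactcg
MCM5 (chrXII:691394-691423, plus strand): tggcgtgTTTCCCTTTTAGGAAAagtgatt
MCM6 (chrVII:121063-121092, minus strand): tattaaaTTTCCTTTTTAGGAAAagcgcct
MCM7, farther match (chrII:625536-625565, plus strand): aactaatTTACCCAGAAAGGAAAtttcctt
MCM7 (chrII:625552-625581, plus strand): aaggaaaTTTCCTTATAAGGAAAataaatg

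The next windows show the MCB element, in capitals, at the licensing gene that holds it and at fork genes that fell, rose or were not called after beta-estradiol. They are shown because the same 6 letters stood before genes that moved in opposite directions.
CDC6 (chrX:69122-69151, plus strand): acgcgaggcctcACGCGTcggagtttccag
DPB2 (chrXVI:888828-888857, plus strand): aaaagtgatgtgACGCGTtatttttcgcgt
PRI2 (chrXI:353316-353345, plus strand): tgatttgaaattACGCGTcgcggggaatcg
RFC4 (chrXV:142674-142703, minus strand): ctgttagattaaACGCGTtttttcttgaca
POL2 (chrXIV:148085-148114, plus strand): agggtaaccagaACGCGTaagtttcttgca
POL3 (chrIV:276694-276723, plus strand): atttttcgtattACGCGTaactttttattc
MRC1 (chrIII:22233-22262, minus strand): tatccttcttcgACGCGTcatgaagagata

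**Figure D1:**
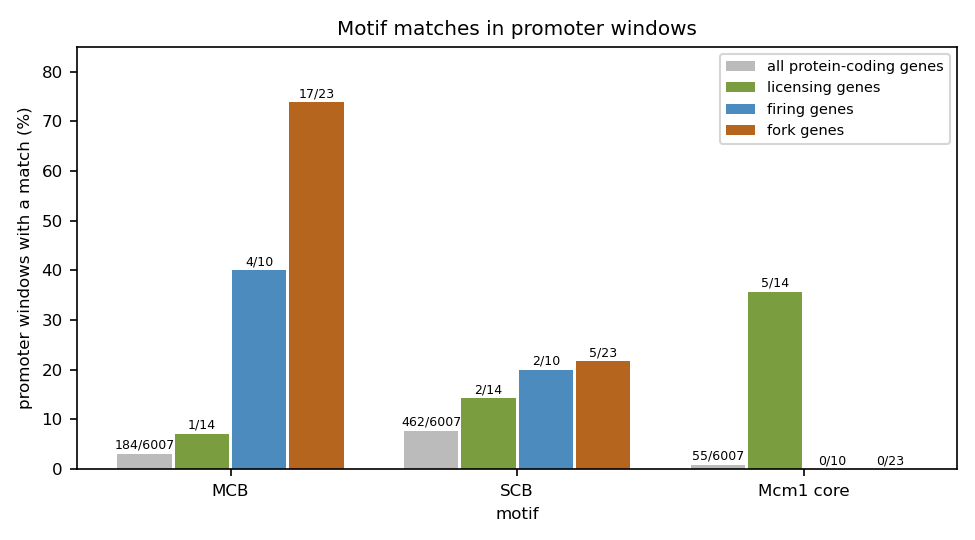
Share of promoters, in percent, that hold each motif in the window from 250 bases before to 50 after the start codon, for all 6007 promoters and for the licensing, firing and fork genes. The MCB element was in 73.9% of fork promoters and the Mcm1 core in 35.7% of licensing promoters.

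At 180 min, 21 of the 47 genes were lower, 2 were higher and 24 were not called. Among all tested genes 57.7% were called, 29.5% higher and 28.2% lower, so that 44.7% of replication genes were lower where 28.2% of all genes were, and 4.26% were higher where 29.5% were. The median of the 47 was a log2 fold change of -0.20, beside 0.02 for all genes. The direction of the counts depended on the scaling, since on library sizes alone 12 members were higher and 7 lower, beside 48.2% and 15.6% of all genes (63.7% in either direction). The 7 that stayed lower were CDC6, SLD5, PRI2, DPB2, RFC2, RFC3 and RFC4, while 19 genes with a negative log2 fold change were then above 0, the called genes DBF4, DPB11, POL31 and POL30 among them. Relative to the median gene, a distance that no scaling can change, the median of the 47 was -0.22 (log2). In raw counts the 47 genes together took 0.248% ± 0.00352 of each library at 0 min and 0.263% ± 0.00633 at 180 min (SD, n = 3).

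The changes were small. Of the 47 genes, 46 had a 95% confidence interval within 2-fold and 35 within 1.5-fold. CDC6 was the single gene past 2-fold, and 4 called genes were past 1.5-fold, namely CDC6, SLD5, DPB2 and RFC4. The 0 min and 180 min libraries did not overlap for 29 genes, 23 of them below and 6 above, beside 30.8% below and 32.7% above among all genes.

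**Figure D2:**
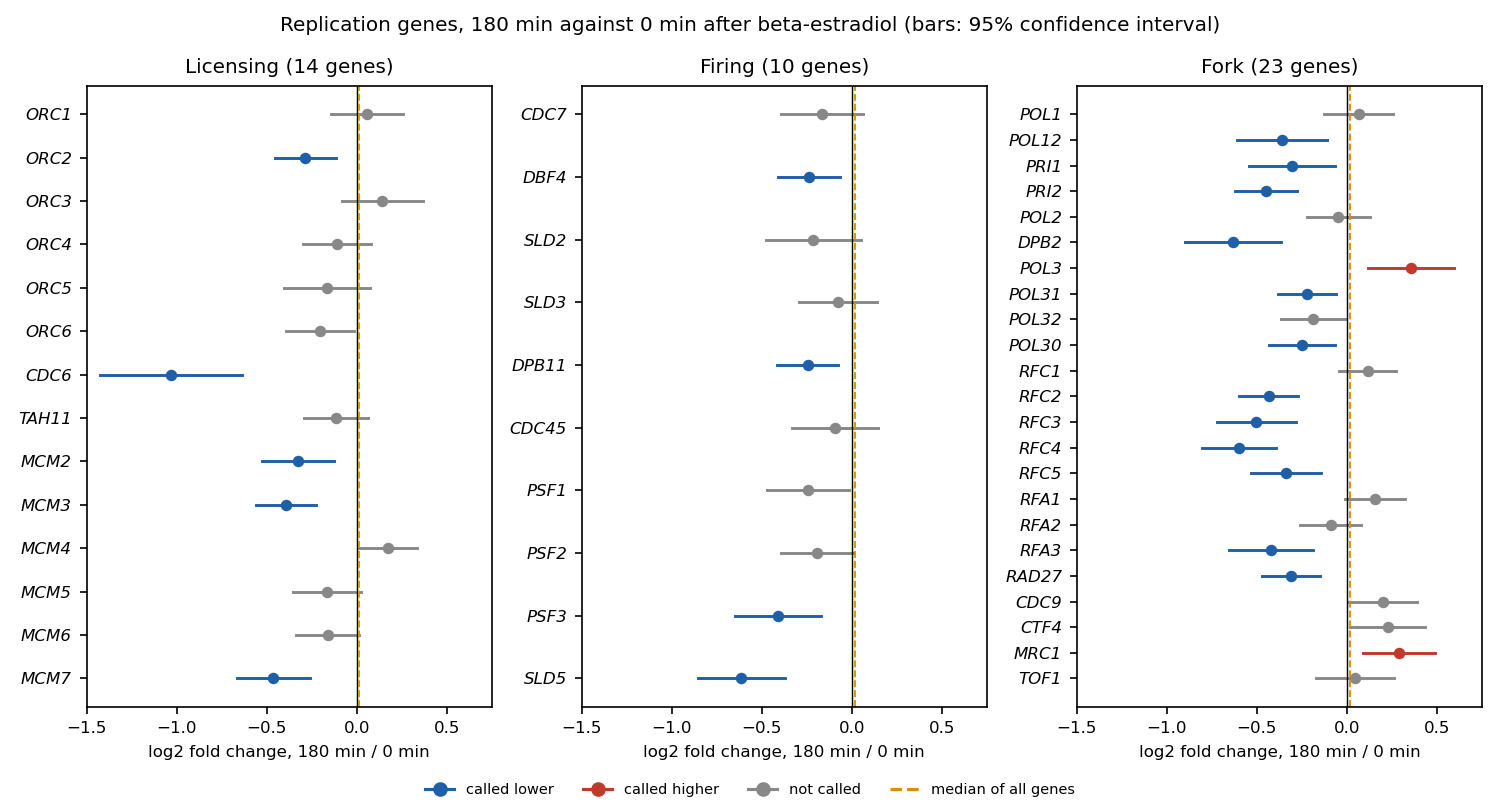
Log2 fold change at 180 min against 0 min for each gene, by role, with the 95% confidence interval from edgeR (3 libraries per group) and the median of all genes as a dashed line. All 10 firing genes lie left of 0 (2 on library sizes alone), and POL3 and MRC1 are the genes called higher.

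Of the 14 licensing genes 5 fell and 0 rose, which is 35.7% lower beside 28.2% of all genes, and their median log2 fold change was -0.17. On library sizes alone 1 was lower and 3 were higher, beside 15.6% lower and 48.2% higher among all genes. Of ORC1 to ORC6, ORC2 alone was called, at 62.5, 69.1 and 65.6 CPM in the 0 min libraries and 53.0, 56.0 and 52.7 CPM in the 180 min libraries. Its groups did not overlap, and it fell by 0.29 ± 0.08 (log2, SE; edgeR adjusted p = 0.00621). ORC6 was 43.0 to 47.1 CPM at 0 min and 37.8 to 42.7 CPM at 180 min, all 3 later libraries below the earlier ones, with an edgeR adjusted p of 0.0613. The log2 fold changes of ORC1, ORC3, ORC4 and ORC5 were between -0.16 and 0.14 and their groups overlapped. ORC1 encodes the largest subunit, an ATPase that binds origin DNA, and had 62.3, 53.5 and 59.9 CPM followed by 68.0, 56.2 and 58.4 CPM.

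CDC6, whose unstable ATPase product is made anew in each cycle to load the helicase, had the largest change of the 47 genes. CDC6 (YJL194W, coding sequence at chrX:69338-70879 of R64) had 13.5, 11.4 and 11.6 CPM at 0 min and 6.60, 4.64 and 6.52 CPM at 180 min. Every 180 min library was below every 0 min library, and the log2 fold change was -1.03 ± 0.19 (SE; edgeR adjusted p = 0.000215), a ratio of 0.489. The lowest raw count behind these values was 133, and the next lowest count of any other member was 509. TAH11, the loading partner Cdt1, had 56.3 to 60.1 CPM at 0 min and 50.5 to 57.7 CPM at 180 min, with overlapping groups and a log2 fold change of -0.11 ± 0.08 (SE; edgeR adjusted p = 0.258).

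The 6 subunits of the Mcm2-7 helicase, which form a ring in equal number, did not move alike. MCM7 (YBR202W, chrII:625772-628309) had 81.5, 76.8 and 69.4 CPM at 0 min and 61.6, 49.4 and 53.9 CPM at 180 min. MCM3 had 85.9, 88.8 and 80.2 CPM and then 66.5, 62.3 and 65.0 CPM. MCM2 had 60.0, 53.1 and 61.0 CPM and then 51.6, 43.6 and 43.7 CPM. These 3 genes fell without overlap, by 0.46 ± 0.10, 0.39 ± 0.08 and 0.32 ± 0.09 (log2, SE), with edgeR adjusted p of 0.000654, 0.000477 and 0.008. MCM5 and MCM6, with log2 fold changes of -0.17 and -0.16, were not called. MCM4 (YPR019W, chrXVI:596750-599551) stood on the other side, at 80.3, 81.3 and 83.4 CPM at 0 min and 93.9, 95.5 and 86.8 CPM at 180 min. All later libraries of MCM4 were above the earlier ones, and its log2 fold change of 0.17 ± 0.08 missed the threshold (SE; edgeR adjusted p = 0.0639).

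Compared per kilobase of gene, the MCM genes were at similar levels at 0 min, from 22.3 CPM per kb for MCM2 to 29.9 for MCM7, a 1.34-fold spread. At 180 min the spread was 1.85-fold, from 17.8 for MCM2 to 32.9 for MCM4. ORC genes spanned 16.9 (ORC3) to 35.3 (ORC2) CPM per kb at 0 min, 2.09-fold. CDC6 was at 7.87 ± 0.751 CPM per kb at 0 min, level with TOF1 at 7.98 ± 0.605, and at 3.84 ± 0.718 at 180 min (SD, n = 3), the lowest of the 47.

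The 5 licensing genes whose promoter holds the Mcm1 core had negative log2 fold changes, with a median of -0.39, although on library sizes alone MCM5 and MCM6 were positive (0.09 and 0.09) and of the 5 CDC6 alone was called. CDC6, MCM3 and MCM7 fell (60.0%, beside 28.2% of all genes) and MCM5 and MCM6 were not called. Among licensing genes without the core, ORC2 and MCM2 also fell and the others were not called. A link between the core and these changes was not tested. YOX1 and YHP1, which encode the repressors of Mcm1 sites, fell as well. YOX1 went from 14.96 ± 2.01 to 7.15 ± 0.898 CPM (SD, n = 3) and YHP1 from 26.2 ± 2.87 to 15.6 ± 1.62 CPM (SD, n = 3). Their log2 fold changes were -1.06 ± 0.17 and -0.76 ± 0.12 (SE; edgeR adjusted p = 5.7e-05 and 8.9e-05).

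Firing genes had negative log2 fold changes, 10 of 10, but on library sizes alone 8 of them were positive. Of the 10, 4 were called lower and 6 were not called, which is 40.0% lower beside 28.2% of all genes. The median was -0.23. For 5 genes the groups did not overlap, with 180 min below, beside 30.8% below and 32.7% above among all genes. On library sizes alone 1 was called lower and 0 higher, beside 15.6% lower and 48.2% higher among all genes. DBF4, the regulatory subunit that activates the Cdc7 kinase, had 87.5, 83.1 and 90.1 CPM at 0 min and 76.2, 77.0 and 67.8 CPM at 180 min. The groups did not overlap, and DBF4 fell by 0.24 ± 0.08 (log2, SE; edgeR adjusted p = 0.0194). Leaving out replicate 3 of either time ended the call (edgeR adjusted p = 0.0578 without the 0 min library and 0.0631 without the 180 min library). CDC7, its catalytic partner, had 27.5 to 34.3 CPM and then 25.9 to 29.2 CPM, with overlap.

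DPB11, a scaffold that joins phosphorylated Sld2 and Sld3, had 55.6, 58.1 and 59.8 CPM at 0 min and 50.6, 48.5 and 47.3 CPM at 180 min. It fell without overlap by 0.25 ± 0.08 (log2, SE; edgeR adjusted p = 0.0155). Its binding partners SLD2 and SLD3 and the helicase subunit CDC45 overlapped between times, with log2 fold changes of -0.21, -0.08 and -0.09. These assembly factors were among the rarer transcripts. CDC45 was at 12.0 CPM per kb, SLD3 at 16.0 and SLD2 at 19.4 at 0 min, where the median protein-coding gene was at 47.7.

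GINS, a ring of 4 small proteins that joins Cdc45 to the Mcm helicase, had a median log2 fold change of -0.33, with 2 of 4 genes called. SLD5 (YDR489W, chrIV:1431012-1431896) had 33.0, 35.2 and 27.3 CPM at 0 min and 20.3, 21.7 and 20.4 CPM at 180 min. PSF3 had 31.4, 26.7 and 28.1 CPM and then 21.5, 19.5 and 23.7 CPM. Both fell without overlap, SLD5 by 0.61 ± 0.11 and PSF3 by 0.41 ± 0.11 (log2, SE; edgeR adjusted p = 0.000256 and 0.00552). PSF1 also had all 180 min libraries below the 0 min ones, at 19.2 to 22.0 against 24.4 to 25.4 CPM, and was not called (edgeR adjusted p = 0.0606). PSF2 overlapped, at 41.6 to 46.3 and then 34.4 to 42.1 CPM.

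Summed over members, licensing genes had 783 to 813 CPM in the 0 min libraries and 694 to 737 CPM in the 180 min libraries. Firing genes summed to 382 to 395 and then 323 to 328 CPM, and fork genes to 1459 to 1591 and then 1367 to 1377 CPM. None of the 3 sums overlapped between times, and each was smaller at 180 min on this scale.

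**Figure D3:**
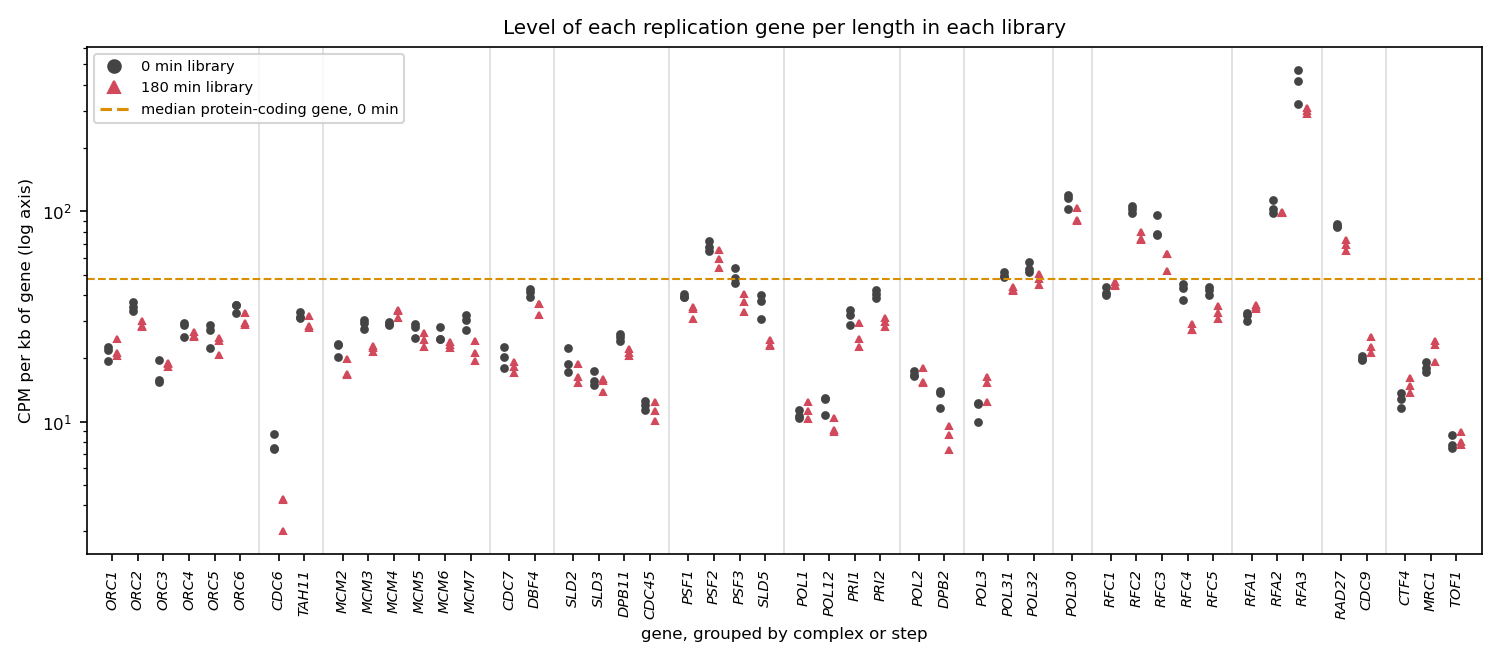
Level of each gene in CPM per kilobase of gene (log axis) in each of the 3 libraries at 0 min and the 3 at 180 min, by role. CDC6 and TOF1 lie lowest and RFA3 highest at both times, followed by POL30 and RFA2.

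Fork genes held both directions: 12 of 23 fell (52.2%, beside 28.2% of all genes), 2 rose (8.70%, beside 29.5%) and 9 missed the threshold. Their median was -0.22 (log2). On library sizes alone 5 were lower and 9 higher, beside 15.6% lower and 48.2% higher among all genes. Polymerase alpha-primase consists of the catalytic subunit Pol1, the regulatory subunit Pol12 and the primase subunits Pri1 and Pri2. PRI2 had 67.3, 64.1 and 61.3 CPM at 0 min and 47.1, 44.8 and 49.2 CPM at 180 min, a fall of 0.45 ± 0.08 without overlap (log2, SE; edgeR adjusted p = 0.000223). POL12 fell by 0.36 ± 0.12 from 22.8 to 27.5 CPM to 18.8 to 22.1 CPM (log2, SE; edgeR adjusted p = 0.0151). PRI1 was called lower at -0.31 ± 0.11 although its groups overlapped, at 35.4 to 41.7 and 27.8 to 36.3 CPM (log2, SE; edgeR adjusted p = 0.0281). POL1 was not called, at 46.0, 46.7 and 50.1 CPM and then 49.6, 54.4 and 45.4 CPM. The POL12 call was lost without replicate 1 of either time (edgeR adjusted p = 0.0589 and 0.0522). The PRI1 call was lost without replicate 1 or 2 of either time, with edgeR adjusted p from 0.0780 to 0.128.

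Polymerase epsilon copies the leading strand, and its catalytic subunit is encoded by POL2. DPB2 (YPR175W, chrXVI:888974-891043), the essential second subunit, had 29.0, 28.4 and 24.1 CPM at 0 min and 15.2, 17.8 and 19.6 CPM at 180 min. Its libraries did not overlap, and its log2 fold change of -0.63 ± 0.12 was the largest fall of the fork genes (SE; edgeR adjusted p = 0.000466). POL2 had 116, 110 and 110 CPM and then 120, 103 and 102 CPM, with overlap and a log2 fold change of -0.05 ± 0.08 (SE; edgeR adjusted p = 0.655). The POL2 call depended on the setting, since POL2 was called lower at -0.41 with the length and GC trend removed (edgeR adjusted p = 0.000337) and higher at 0.21 on library sizes alone (edgeR adjusted p = 0.0471). The 2 small subunits, on a list of other replication genes, were both called lower: DPB4 at -0.65 ± 0.08 and DPB3 at -0.34 ± 0.09 (log2, SE; edgeR adjusted p = 4.63e-06 and 0.00354).

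Polymerase delta extends the lagging strand, and POL3 encodes its catalytic subunit. POL3 (YDL102W, chrIV:276872-280165) had 40.2, 40.1 and 32.9 CPM at 0 min and 53.7, 50.3 and 40.8 CPM at 180 min. The lowest 180 min library was just above the highest 0 min library, and the log2 fold change was 0.36 ± 0.11 (SE; edgeR adjusted p = 0.0137). POL31 fell by 0.22 ± 0.08, from 71.0 to 74.9 CPM to 61.4 to 64.01 CPM (log2, SE; edgeR adjusted p = 0.0206), and POL32 had 53.9 to 60.4 CPM and then 46.9 to 52.9 CPM without a call. Leaving out the third 0 min library or the first 180 min library ended the POL3 call (edgeR adjusted p = 0.0605 and 0.0657), as did removing the length and GC trend, with a log2 fold change of 0.11 (edgeR adjusted p = 0.403). The POL31 call ended without 0 min replicate 1 or 2 or 180 min replicate 2, with edgeR adjusted p from 0.0554 to 0.0667. POL30, which encodes PCNA, was called lower at -0.25 ± 0.09 with overlapping groups of 80.0 to 92.5 and 70.1 to 80.1 CPM (log2, SE; edgeR adjusted p = 0.0224). That call was lost without replicate 1 or 2 of either time, with edgeR adjusted p from 0.0706 to 0.103, and with the length and GC trend removed, at -0.16 (edgeR adjusted p = 0.0899).

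In the clamp loader RFC 4 subunits fell and the fifth was not called. RFC4 (YOL094C, chrXV:141584-142555) had 42.1, 43.9 and 37.0 CPM at 0 min and 28.2, 26.5 and 26.5 CPM at 180 min. RFC3 had 98.7, 78.7 and 79.5 CPM and then 53.3, 64.1 and 63.8 CPM. RFC2 had 109, 113 and 104 CPM and then 78.5, 77.5 and 84.99 CPM. In these 3 genes, and in RFC5 (42.4 to 46.5 and then 32.7 to 37.9 CPM), no 180 min library reached a 0 min library. RFC4 fell by 0.60 ± 0.10, RFC3 by 0.50 ± 0.10, RFC2 by 0.43 ± 0.08 and RFC5 by 0.34 ± 0.09 (log2, SE; edgeR adjusted p = 7.94e-05, 0.000643, 0.000188 and 0.00478). RFC1 (YOR217W, chrXV:749301-751886), the large subunit, had 106, 104 and 112 CPM and then 119, 116 and 114 CPM. All its 180 min libraries were above the 0 min ones, and its log2 fold change of 0.11 ± 0.07 was not called (SE; edgeR adjusted p = 0.199).

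RPA is a trimer of a large, a middle and a small subunit. RFA3, the small subunit, had 173, 153 and 119 CPM at 0 min and 111, 107 and 115 CPM at 180 min. The 0 min libraries of RFA3 were widely spread, and all were above the 180 min libraries. It fell by 0.42 ± 0.11 (log2, SE; edgeR adjusted p = 0.00398). RFA1, the large subunit, was higher in all later libraries, at 64.1 to 67.2 against 55.8 to 61.3 CPM, and was not called (edgeR adjusted p = 0.102). RFA2 overlapped, with a log2 fold change of -0.09.

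Okazaki fragments are trimmed by the flap nuclease Rad27 and sealed by the ligase Cdc9. RAD27 had 99.7, 97.6 and 97.2 CPM at 0 min and 74.6, 79.4 and 83.5 CPM at 180 min, a fall of 0.31 ± 0.08 without overlap (log2, SE; edgeR adjusted p = 0.00272). CDC9 had all 180 min libraries above the 0 min ones, at 47.9 to 57.4 against 44.6 to 46.4 CPM, and was not called (log2 fold change 0.20 ± 0.09, SE; edgeR adjusted p = 0.062).

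MRC1, TOF1 and CTF4 act at the moving fork, Mrc1 and Tof1 in fork pausing and checkpoint signalling and Ctf4 as a hub between the helicase and polymerase alpha. None of the 3 fell. MRC1 (YCL061C, chrIII:18816-22106) had 59.5, 56.4 and 63.0 CPM at 0 min and 76.0, 79.3 and 63.4 CPM at 180 min, and rose by 0.29 ± 0.09 (log2, SE; edgeR adjusted p = 0.0151). The third 180 min library was barely above the highest 0 min library, and leaving out the second 0 min library, or the first or second 180 min library, ended the call, with edgeR adjusted p from 0.0505 to 0.0866. With the length and GC trend removed MRC1 was at 0.05 and not called (edgeR adjusted p = 0.640). CTF4 had 32.1 to 38.2 CPM and then 38.1 to 44.8 CPM, with an edgeR adjusted p of 0.0604. TOF1 overlapped, with a log2 fold change of 0.04 ± 0.10 (SE; edgeR adjusted p = 0.737).

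Levels at the fork differed widely between subunits of a complex. Per kilobase, RFA3 was highest of the 47 genes, at 402 ± 73.8 CPM per kb at 0 min and 300 ± 10.5 at 180 min (SD, n = 3), and RPA spanned 12.7-fold from RFA1 at 31.6. The length ran from start to stop codon, 369 bases for RFA3 and 1866 for RFA1, without untranslated parts of the transcript. Before division by length RFA3 was at 148 CPM and RFA1 at 58.9 CPM at 0 min. POL30 had 113 ± 8.52 and 94.8 ± 7.19 CPM per kb, and RFA2 had 105 ± 7.60 and 98.2 ± 0.697, close to it at both times. RFC spanned 2.46-fold at 0 min, from RFC1 at 41.5 to RFC2 at 102 CPM per kb. The medians at 0 min were 27.6 for licensing, 30.6 for firing and 40.5 for fork genes, and 37 of the 47 genes were below the median protein-coding gene.

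In several complexes the longest gene stood apart from its partners, a comparison that was chosen after the values were seen. The log2 ratio of the longest gene to the mean of its partners, in CPM per kb, does not depend on library scaling. Partners were the other listed replication genes of the complex. For POL2 this was DPB2 alone, the fork gene with the largest fall, since DPB3 and DPB4 were left out. For RFC1 it was -0.58 ± 0.121 at 0 min and -0.00 ± 0.0947 at 180 min, a difference of 0.58. For POL2 it went from 0.36 ± 0.129 to 0.94 ± 0.315, for POL3 from -2.18 ± 0.120 to -1.63 ± 0.263, for POL1 from -1.21 ± 0.129 to -0.77 ± 0.188 and for RFA1 from -2.69 ± 0.119 to -2.29 ± 0.0532 (SD, n = 3). In these 5 complexes the 2 times did not overlap. The exact two-sided permutation p was 0.1 in each, the smallest that 3 against 3 libraries can give, and 0.18 adjusted over the 9 complexes compared. This p restates the lack of overlap and is no independent test, because the comparison was chosen from the same values. The share without overlap among other sets of long and short genes was not computed. In ORC, Mcm2-7, Cdc7-Dbf4 and GINS the times overlapped, with differences from -0.32 for SLD5 to 0.17 for ORC1.

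**Figure D4:**
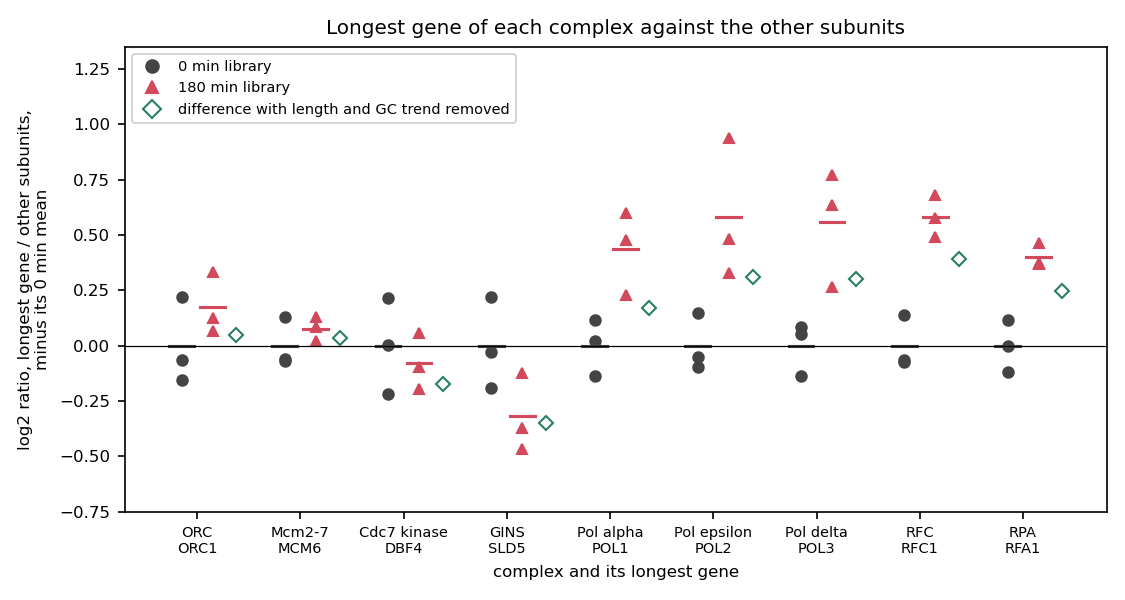
Log2 ratio of each complex's longest gene to the mean of its other listed subunits, in each library, minus its mean at 0 min. For POL2 the other listed subunit was DPB2 alone, without DPB3 and DPB4. Bars are group means, and open diamonds are the difference after the length and GC trend of all genes was removed. The 5 fork complexes lie above 0 at 180 min without overlap with 0 min. ORC1 and MCM6 also lie above 0 but overlap, while SLD5 of GINS lies below.

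Longer genes had higher log2 fold changes across the whole transcriptome. The median log2 fold change of all protein-coding genes was -0.08 up to 1000 bases, 0.01 from 1000 to 2000, 0.16 from 2000 to 3000 and 0.28 above 3000 bases. The replication genes lay below these medians in every class, at -0.33 (8 genes), -0.21 (19 genes), -0.20 (14 genes) and 0.05 (6 genes). After the trend with length and GC content over all genes was removed, 0 of the 47 were higher and 25 were lower, 20 of them also lower before and POL30 no longer called, beside 29.3% higher and 29.3% lower among all genes (58.6% in either direction). The calls of POL3 and MRC1 ended as given above. POL1, POL2, MCM5 and MCM6 were newly called lower, at -0.23, -0.41, -0.34 and -0.32 (log2), as was ORC6, and licensing genes called lower numbered 8. In the fork complexes the differences of the longest genes from their partners were smaller, 0.39 for RFC1, 0.30 for POL3, 0.25 for RFA1 and 0.17 for POL1. For POL2, against DPB2 alone, the difference was also smaller, at 0.31. Outside the fork it was smaller for ORC1 and MCM6, at 0.05 and 0.03. It was larger in size for SLD5, at -0.35 after -0.32, and for DBF4, at -0.17 after -0.08.

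**Figure D5:**
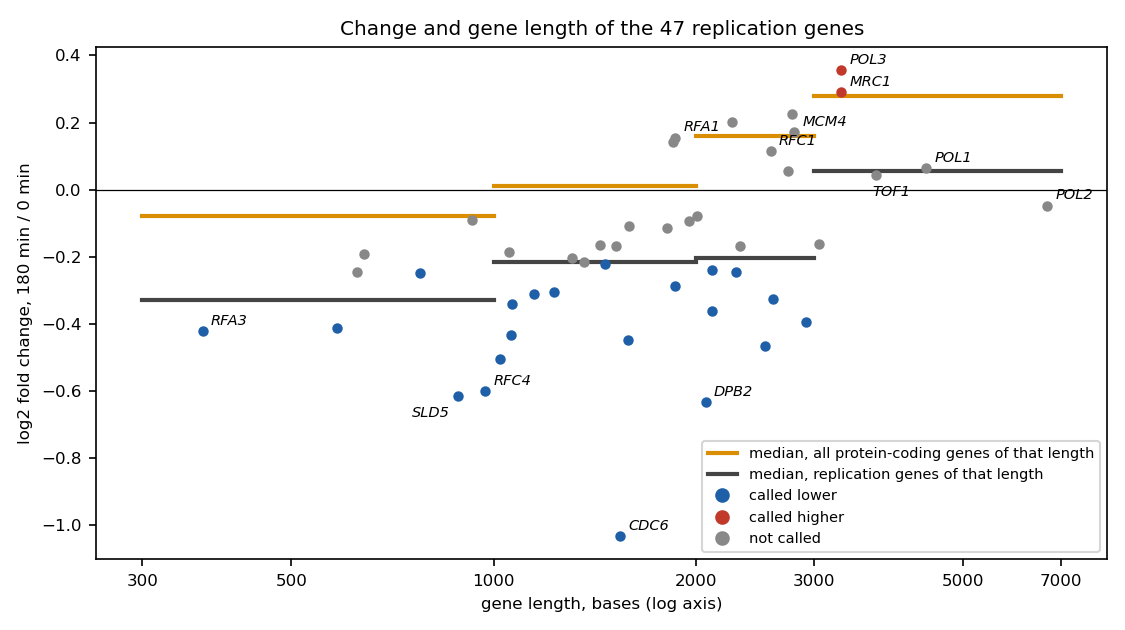
Log2 fold change of the 47 genes against gene length in bases (log axis), with the median of all protein-coding genes and of the replication genes in each length class as horizontal lines. The 6 genes above 3000 bases centre on 0.05, below the 0.28 of all genes of that length.

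Presence of the MCB element did not separate the genes by their change. The 22 genes with it had a median log2 fold change of -0.20, with 10 lower (45.5%) and 2 higher (9.09%). The 25 without it had a median of -0.20, with 11 lower (44.0%) and 0 higher. Among all genes 28.2% were lower and 29.5% higher. Both genes that rose, POL3 and MRC1, hold the element, as do CDC6, DPB2, PRI2 and RFC4, which fell. The POL3 and MRC1 calls ended with the length and GC trend removed (edgeR adjusted p = 0.403 and 0.640).

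Other genes of the pathway and of the cell cycle are given for context. They come from 7 lists drawn up by function, also with earlier results of these data known. Of 26 further replication genes 4 were higher and 8 lower (30.8% lower, beside 28.2% of all genes), with a median of -0.10. CDC53, a scaffold of the SCF ubiquitin ligase, rose by 0.34 ± 0.07 and CTF8, of the alternative clamp loader that acts in sister chromatid cohesion, fell by 0.52 ± 0.12 (log2, SE; edgeR adjusted p = 0.00107 and 0.00198). Of 20 genes timed to G1/S, many of them MBF or SBF targets like the fork genes, 1 was higher and 6 were lower (30.0% lower, again near the share of all genes), with a median of -0.04. The cyclin gene PCL1 fell by 1.01 ± 0.15, RNR1, the large subunit of ribonucleotide reductase, by 0.49 ± 0.10 and the G1 cyclin gene CLN2 by 0.42 ± 0.09, while TOS4 rose by 0.34 ± 0.09 (log2, SE; edgeR adjusted p = 3.6e-05, 0.000706, 0.000749 and 0.00439). The reporter allele carries a CLN2 3' segment, and CLN2 counts could include reads from it. Of the 8 core histone genes, transcribed in S phase, 0 were called, and their median was 0.00 with log2 fold changes from -0.19 to 0.20.

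Of 12 regulators of G1 and M/G1 transcription 1 was higher and 7 were lower (58.3% lower, beside 28.2% of all genes), with a median of -0.44. Beside YOX1 and YHP1, the transcription factor gene SWI5 fell by 0.48 ± 0.08 and the G1 cyclin gene CLN3 by 0.47 ± 0.09 (log2, SE; edgeR adjusted p = 0.000174 and 0.000458). In the CLB2 cluster, transcribed at G2/M, 14 of 15 genes fell (93.3%, beside 28.2% of all genes), with a median of -0.50. KIN3, which encodes a kinase, went from 41.6 ± 3.19 to 20.5 ± 2.06 CPM and HST3, a histone deacetylase gene, from 43.6 ± 4.71 to 26.4 ± 1.01 CPM (SD, n = 3). CLB2, the main mitotic cyclin gene, went from 61.8 ± 3.23 to 30.3 ± 1.67 CPM, and CDC20, which activates the ligase that starts anaphase, from 39.4 ± 2.57 to 22.6 ± 1.57 CPM (SD, n = 3). Of 12 genes timed to M/G1, 5 rose and 7 fell (41.7% and 58.3%, beside 29.5% and 28.2% of all genes). DSE1, a daughter-cell gene, went from 96.0 ± 9.78 to 206 ± 6.09 CPM and PIR1, a cell wall gene, from 533 ± 40.5 to 271 ± 27.6 CPM (SD, n = 3). CTS1, a chitinase gene of daughter cells, went from 877 ± 92.1 to 2313 ± 318 CPM (SD, n = 3), and FAR1, an inhibitor of the G1 cyclin-dependent kinase, went from 90.2 ± 1.77 to 47.4 ± 3.17 CPM (SD, n = 3). Of 10 S-phase checkpoint genes 6 rose (60.0%, beside 29.5% of all genes) and 0 fell, with a median of 0.33. DDC2, the partner of the checkpoint kinase Mec1, led at 0.62 ± 0.10 (log2, SE; edgeR adjusted p = 9.5e-05), with MEC1 at 0.46, RAD9 at 0.43 and DUN1 at 0.35. Longer genes had higher log2 fold changes across the transcriptome, and these lists were not compared by length. Some genes, such as CLN3 and SWI5, are on more than 1 of these lists. The part of a shift in cell cycle phase in the change of the replication genes was not tested.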

How the data were processed

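RNA from 6 samples of 1 strain, from 3 independent experiments, was made into stranded poly(A) libraries, per the labels' protocols. The authors deposited counts, whole numbers of reads per gene that are not normalized. The tools named in the submitters' processing notes were STAR 2.5.3a, HTSeq 0.6.1p1, cutadapt 1.10 and bcl2fastq 2.20.0.422, and the builds R64 and sacCer3. How strand and multiply mapping reads were handled in counting is not given in the sources used here. None of the 47 genes overlaps another annotated gene (0 of 47). Of 7127 identifiers 6047 matched RefSeq R64 by locus tag and 41 by symbol, and 1039 did not match (0.469% of counts).

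Differences were tested in R 4.3.3 with edgeR 4.0.16 (TMM factors, filterByExpr, two-sided quasi-likelihood F test, 180 min against 0 min, Benjamini-Hochberg over 6220 genes), after a test on simulated data. CPM use TMM-adjusted library sizes, and CPM per kb divide by the annotated gene length, which in this annotation runs from start to stop codon. P-values measure the spread between 3 libraries per group. Alternatives were library sizes alone, DESeq2 1.42.0, limma-voom 3.58.1, filters, a replicate block, a length and GC trend, and leaving out each library.

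The 47 members and the 7 lists were chosen with earlier results of these data known. The text names all 47 genes and, per list, up to 4 called genes with the smallest adjusted p.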

Additional observations from a re-analysis of the deposited data

How the results depend on the processing

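On library sizes alone 12 members were higher and 7 lower, namely 3 and 1 of the licensing genes, 1 firing gene lower, and 9 and 5 of the fork genes, beside 2996 and 969 of all genes. There 19 of the 36 negative log2 fold changes became positive, among them those of DBF4 (0.0151), DPB11 (0.00733), POL2 (0.21), POL31 (0.0322) and POL30 (0.00531), since the scaling shifts every gene upward. Relative to the median gene, which scaling alone cannot change, the median of the members was between -0.24 and -0.20 under all alternatives. With the length and GC trend removed, 0 members, and so 0 fork genes, were higher, 8 licensing genes were lower, and POL1 was at -0.23. Among all genes 29.3% were higher and 29.3% lower in that setting. At an adjusted p below 0.01, 0 members and 0 fork genes were higher, and 15 members were lower (5 licensing, 2 firing and 8 fork genes), beside 23.3% higher and 22.6% lower among all genes.

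With the replicate number as a block, 2 members were higher and 21 lower, beside 1727 and 1663 of all genes. With block and trend together, 0 members and 0 fork genes were higher, 8 licensing genes were lower and POL1 was at -0.23. Among all genes 28.4% were then higher and 28.7% lower. Pairing by replicate number was not seen: deviations of same-numbered libraries correlated at 0.01, -0.02 and -0.22, and 0 of 6 libraries matched its own number best. With 3 libraries per group these correlations cannot show that the samples were unpaired.

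Leaving out each library gave 0 to 5 members higher and 18 to 22 lower, 0 to 1 licensing genes higher and 5 to 6 lower, 0 firing genes higher and 3 to 4 lower, 0 to 4 fork genes higher and 8 to 13 lower, and 1597 to 1767 and 1546 to 1710 of all genes. CDC6, SLD5, PRI2, DPB2, RFC2, RFC3 and RFC4 (7 genes) were called lower under every alternative, and 15 genes under every one but library sizes alone. The DESeq2 Wald test, limma-voom, no filter and a filter at 1 CPM changed no member's call. DESeq2 size factors and TMM without ribosomal protein genes each gave 23 members lower, beside 28.8% and 29.1% of all genes. ORC6 (edgeR adjusted p = 0.0483 and 0.0442) and PSF1 (0.0487 and 0.0457) were newly called there. Nuclear protein-coding genes alone gave 22 lower, beside 30.5% of the genes then tested, with ORC6 newly called (edgeR adjusted p = 0.0479). Where a cause is not named, the cause was not tested.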
